A study of Homo sapiens with 6 samples.

Results

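The genes described here are 10 regulators and markers of epithelial-mesenchymal transition: the transcription factors SNAI1, SNAI2, TWIST1, TWIST2, ZEB1, ZEB2 and PRRX1, the cadherins CDH1 and CDH2, and the filament gene VIM. They were taken by name, 1 row each, from a table of 58233 gene rows. The values come from RNA sequencing of the human line HGC-27, established from a gastric carcinoma that had lost its differentiation, 72 h after transfection. By their labels, the siSTRN3 libraries (3) are from cells given a mixture of siRNAs against STRN3, and the siNC libraries (3) from cells given a negative control siRNA with the same reagent. STRN3 encodes striatin-3, a subunit that brings protein phosphatase 2A into the STRIPAK complex.

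Epithelial-mesenchymal transition is the program by which epithelial cells lose their junctions and take on the shape and motility of mesenchymal cells. The SNAIL and ZEB zinc finger proteins repress CDH1, which encodes E-cadherin, by binding E-box sequences, and TWIST and PRRX1 are mesodermal factors that promote the same state. Cells that have gone through the transition typically make vimentin, and often N-cadherin, encoded by CDH2. In the opposite direction, microRNAs of the miR-200 family target the ZEB messages, and ZEB proteins repress the miR-200 genes.

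The miR-200 sequences are shown because they connect the ZEB members to the epithelial state. From RefSeq (GRCh38.p14), with the seed, bases 2 to 8, in capitals, the family falls into a pair sharing AACACUG and a trio sharing AAUACUG, which differ at 1 base:
hsa-miR-200a-3p: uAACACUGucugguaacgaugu
hsa-miR-141-3p: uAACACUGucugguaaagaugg
hsa-miR-200b-3p: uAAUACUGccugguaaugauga
hsa-miR-200c-3p: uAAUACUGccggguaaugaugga
hsa-miR-429: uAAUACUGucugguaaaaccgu

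Reverse complements of these seeds, CAGTGTT and CAGTATT, were searched on the sense strand of the 3′ untranslated region of each member's longest coding transcript in GENCODE release 29 (GRCh38). ZEB1 held 9 matches in 2549 bases and ZEB2 9 in 5370 bases. Among the 2287 regions within 20% of the length of that of ZEB1, its own included, 1 held as many (0.0437%), and for ZEB2 2 of 1090 did (0.183%). A match was present in 28% of all 19068 regions read. SNAI2 held 1 match, and the regions of SNAI1, TWIST1, TWIST2, PRRX1, CDH1, CDH2 and VIM held none. The following matches, in capitals and written as DNA, are 2 from ZEB1 and 2 from ZEB2, with 1 of each seed type per gene:
ZEB1, chr10:31528562-31528584, plus strand: tgtcttcaaacctggCAGTATTa
ZEB1, chr10:31528782-31528804, plus strand: tgagatttgatttaaCAGTGTTa
ZEB2, chr2:144388989-144389011, minus strand: cgcactacaatgcatCAGTATTa
ZEB2, chr2:144388710-144388732, minus strand: agtgccatccttgtaCAGTGTTa

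The 5 hairpin rows of the family and the row of the host gene MIR200CHG were listed at 0 in all 6 libraries. Libraries of this kind do not measure mature microRNAs, so these rows say nothing about mature levels.

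The E-box CAGGTG, which reads CACCTG on the other strand, was searched on both strands in RefSeq windows of 250 bases before to 50 after each start site (GRCh38.p14). It is one of the letter forms of the wider motif CANNTG. Windows were matched for 6 of the 10 members, 13 windows in all, and not for SNAI1, SNAI2, TWIST1 and CDH1. CAGGTG was in 2 of them, both at ZEB1, which has 7 windows, against 20.6% of all 35116 windows, while CANNTG was in 6 of the 13, against 68.7%. The ZEB1 window with the most matches, 3, is shown with them in capitals, at 242 and 85 bases before the start and 33 after it. Of all windows, 0.635% held 3 or more. The VIM window, shown for contrast because VIM was the most abundant member, held neither motif.
ZEB1, chr10:31318966-31319265, plus strand: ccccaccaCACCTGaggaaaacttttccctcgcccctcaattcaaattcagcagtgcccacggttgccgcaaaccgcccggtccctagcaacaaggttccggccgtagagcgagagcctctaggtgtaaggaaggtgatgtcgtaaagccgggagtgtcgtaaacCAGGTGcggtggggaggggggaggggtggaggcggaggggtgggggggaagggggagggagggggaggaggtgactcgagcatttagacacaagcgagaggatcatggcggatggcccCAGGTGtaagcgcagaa
VIM, chr10:17227991-17228290, plus strand: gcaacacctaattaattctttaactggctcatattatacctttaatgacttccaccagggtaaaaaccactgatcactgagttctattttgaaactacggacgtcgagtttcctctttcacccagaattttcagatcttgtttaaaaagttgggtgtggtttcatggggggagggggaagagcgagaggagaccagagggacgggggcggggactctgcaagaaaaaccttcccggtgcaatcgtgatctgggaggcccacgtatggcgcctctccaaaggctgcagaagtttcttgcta

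Levels are TPM, shares of a library's transcripts corrected for transcript length, so that genes can be compared with each other. Sequencing depth cannot be recovered from TPM and is unknown here. Nothing in the labels tells if replicates were separate cultures, and p-values therefore reflect the scatter of these 6 libraries, which may be technical. The level of the targeted gene STRN3 was not reduced, with 4.76, 5.0 and 5.56 TPM in the libraries labelled siSTRN3 and 3.51, 5.30 and 3.85 TPM in siNC. Relative to the median gene it was higher (log2 fold change 0.77 ± 0.13 SE, limma adjusted p = 0.00894), and on the deposited scale it was 0.24 (adjusted p = 0.142). The authors' deposited adjusted p for STRN3 (DESeq2) was 9.50e-14, without a fold change, and their yes or no call was no, so that call does not rest on the adjusted p alone. The level of STRN3 thus goes against the label, and all directions below refer to the labels as given, siSTRN3 over siNC. Whether labels were exchanged was not tested, and an exchange would turn every direction given here.

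Most genes had lower TPM in the libraries labelled siSTRN3, with a median log2 fold change of -0.57 over 13004 tested rows. Ribosomal RNA rows under the symbol RNA5-8S5, 7 in number, took 21.5% to 22.2% of the total there and 8.13% to 8.78% in siNC, and their part in any difference below was not tested. Fold changes are therefore given relative to the median gene, after 1 factor per library gave all libraries the same median, as log2(TPM + 1), where the added 1 makes the changes of low genes look smaller. A gene is said to have risen or fallen on that scale, at an adjusted p under 0.05. TPM values are printed as deposited, and dividing them does not give the fold changes. In bulk RNA, fewer cells of a kind and less RNA per cell cannot be told apart.

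The 10 members differed widely in level. VIM was first, followed by TWIST1, PRRX1, SNAI2, SNAI1, ZEB2 and ZEB1, and the order of group means was the same in both groups. CDH1, CDH2 and TWIST2 were under 1 TPM in all 6 libraries and were not tested, so 7 of the 10 members passed the filter of at least 1 TPM in at least 3 libraries. Some neighbours in the order were not separated by their spread. ZEB1 and ZEB2 overlapped in both groups. TWIST1 and PRRX1 overlapped in the libraries labelled siSTRN3, as did SNAI1 and ZEB2, but neither pair did so in siNC.

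**Figure D1:**
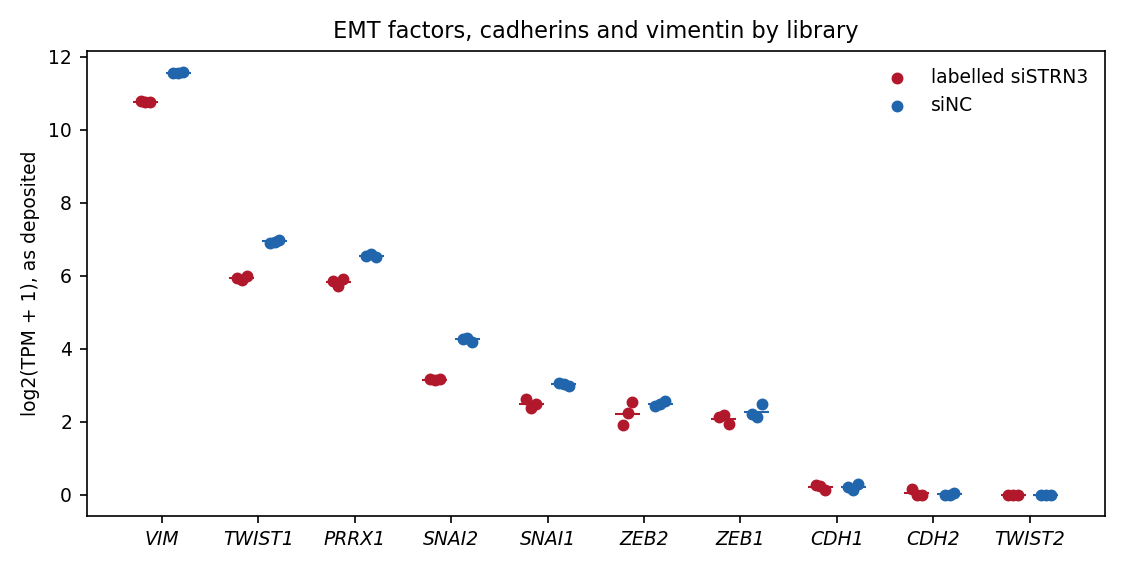
Level of each member as log2(TPM + 1), as deposited, with 1 point per library, red for the libraries labelled siSTRN3 and blue for siNC, and a line at the group mean. VIM, TWIST1, PRRX1, SNAI2 and SNAI1 are lower in all 3 libraries labelled siSTRN3 on this scale, ZEB1 and ZEB2 overlap, and CDH1, CDH2 and TWIST2 lie near 0.

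Of the 7 tested members, 3 fell and none rose: SNAI2, TWIST1 and VIM. Over all tested rows, 10.4% fell, 11% rose and 21.3% did either, 1424 up and 1348 down, and with TPM recomputed over protein-coding rows the split was 1078 up and 1985 down. The median log2 fold change of the 7 members was -0.076, against -0.0063 for all tested rows. On the deposited scale 5 of the 7 were lower and none higher, where 81.8% of all rows were called, 80.8% lower and 1.01% higher. The groups did not overlap for 3 members after rescaling, all lower, against 42.4% of all rows (21.8% lower and 20.7% higher), and for 5 as deposited, all lower, against 83.3% (82.2% lower and 1.15% higher). That scale adds SNAI1 and PRRX1, whose deposited log2 fold changes of -0.54 and -0.72 lie near that of the median row.

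**Figure D2:**
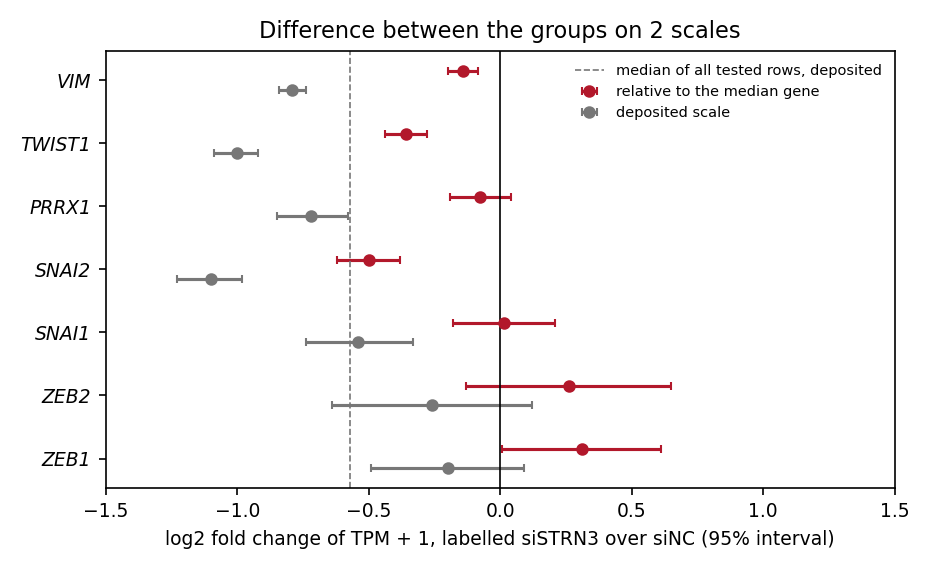
Log2 fold change of TPM + 1, labelled siSTRN3 over siNC, with its 95% limma interval for the 7 tested members, red relative to the median gene and grey on the deposited scale. The dashed line marks the deposited-scale median of all tested rows at -0.57. Relative to the median gene the intervals of SNAI2, TWIST1 and VIM lie below 0, and ZEB1 and ZEB2 are above 0 in red and below 0 in grey.

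SNAI2 (chromosome 8, 48917604 to 48921740, GRCh38), which encodes the repressor SLUG, changed the most of the members called. It had 7.93, 7.78 and 7.90 TPM in the libraries labelled siSTRN3, against 18.33, 18.54 and 17.24 TPM in siNC. The groups were far apart and the 3 values of each group were close together. Relative to the median gene SNAI2 fell 1.42-fold (log2 -0.50 ± 0.05 SE, adjusted p = 0.00167), and 3.22% of all tested rows lay lower. SNAI1 (chromosome 20, 49982999 to 49988886), the gene of SNAIL and the founding member of that family, had 5.13, 4.17 and 4.53 TPM in the libraries labelled siSTRN3, against 7.38, 7.22 and 6.78 TPM in siNC. After rescaling its groups overlapped, with a log2 fold change of 0.016 ± 0.083 SE (adjusted p = 0.908) and an interval of -0.18 to 0.21. On the deposited scale SNAI1 was lower (-0.54, adjusted p = 9.55e-04), so its direction depends on the scaling.

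A ratio of 2 members inside a library does not depend on the scaling. SNAI2 stood at 1.55, 1.87 and 1.74 times SNAI1 in the libraries labelled siSTRN3, against 2.48, 2.57 and 2.54 times in siNC. The ratio was 1.48-fold lower in the libraries labelled siSTRN3 (mean log2 ratio 0.78 ± 0.14 and 1.34 ± 0.025, SD, n = 3 each; exact 2-sided permutation test p = 0.1, the smallest that 3 against 3 can give). The 2 groups did not overlap. For ZEB1 over ZEB2 the ratios were 1.23, 0.95 and 0.59 in the libraries labelled siSTRN3, against 0.84, 0.74 and 0.94 in siNC, with the siNC values inside the wider range of the others (difference in mean log2 ratio 0.078, exact p = 0.8). Of 8 pairs chosen for this comparison, 6 involved a member under 1 TPM and were not computed.

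**Figure D3:**
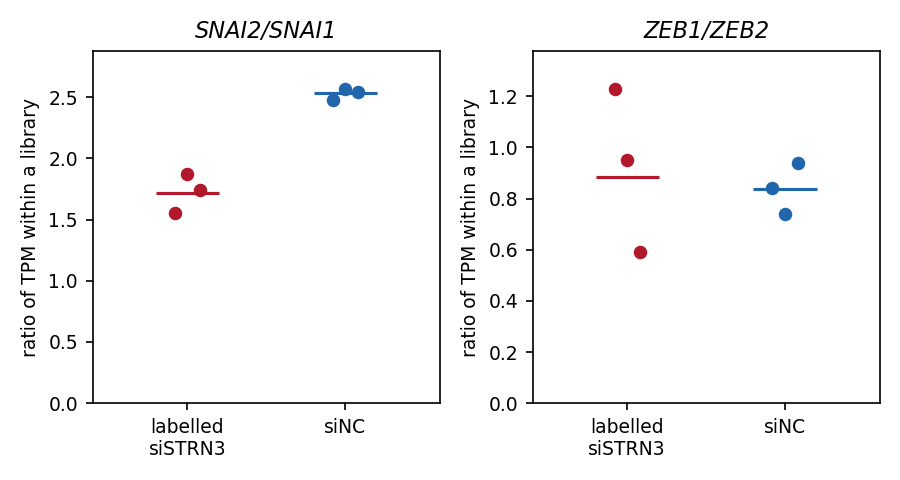
Ratio of deposited TPM of 2 members within each library, SNAI2 over SNAI1 at left and ZEB1 over ZEB2 at right, for the 3 libraries labelled siSTRN3 in red and the 3 siNC libraries in blue, with lines at the geometric means. The SNAI2 to SNAI1 ratio is 1.55 to 1.87 in the libraries labelled siSTRN3 and 2.48 to 2.57 in siNC, while the ZEB1 to ZEB2 ratios overlap.

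TWIST1 (chromosome 7, 19020991 to 19117672), a basic helix-loop-helix factor of mesoderm and neural crest, was the most abundant of the transcription factors by mean. It had 59.88, 58.15 and 61.93 TPM in the libraries labelled siSTRN3, against 118.79, 120.86 and 123.82 TPM in siNC. On the rescaled values TWIST1 fell 1.28-fold (log2 -0.36 ± 0.034 SE, adjusted p = 0.00139), with no overlap between the groups on either scale. Its exons share 141 bases with AC003986.2 on the opposite strand, a row with a mean of 1.83 TPM against TWIST1 at 60 and 121 TPM in the libraries labelled siSTRN3 and in siNC, and without a known strand setting reads from the shared bases cannot be told apart. TWIST2 (chromosome 2, 238848032 to 238910543), its close paralog, was listed at 0 in all 6 libraries.

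PRRX1 (chromosome 1, 170662728 to 170739419), a paired-type homeobox gene of mesenchyme, had 56.21, 51.26 and 59.25 TPM in the libraries labelled siSTRN3, against 91.75, 94.73 and 89.36 TPM in siNC. The rescaled values were 70.26, 65.11 and 73.44 in the libraries labelled siSTRN3, against 73.38, 74.74 and 71.96 in siNC, and the groups overlapped (log2 fold change -0.076 ± 0.049 SE, adjusted p = 0.304, interval -0.19 to 0.04). The authors' deposited table gives PRRX1 an adjusted p of 1.11e-07, without a fold change, and its yes or no call for PRRX1 is no. The related homeobox gene PRRX2, named here for comparison after its values were seen, stood at 41.8 ± 2.34 TPM in the libraries labelled siSTRN3 and 65.4 ± 1.26 TPM in siNC (SD, n = 3 each; log2 fold change 0.0049, adjusted p = 0.95).

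ZEB1 (chromosome 10, 31318495 to 31529814) and ZEB2 (chromosome 2, 144364364 to 144524583) encode zinc finger homeobox repressors of CDH1, and both were low. ZEB1 had 3.35, 3.50 and 2.83 TPM in the libraries labelled siSTRN3, against 3.65, 3.35 and 4.59 TPM in siNC. ZEB2 had 2.73, 3.68 and 4.77 TPM in the libraries labelled siSTRN3, against 4.33, 4.53 and 4.86 TPM in siNC. On either scale the groups overlapped for both genes. Relative to the median gene ZEB1 stood at 0.31 ± 0.13 SE (adjusted p = 0.128, interval 0.0083 to 0.61) and ZEB2 at 0.26 ± 0.16 SE (adjusted p = 0.29, interval -0.13 to 0.65), while on the deposited scale they were at -0.20 and -0.26. The intervals are not adjusted for the number of rows tested. The interval of ZEB2 holds 0, and that of ZEB1 begins just above it. ZEB1 shares 366 exonic bases with ZEB1-AS1 on the opposite strand (mean 5.78 TPM), and ZEB2 1299 bases with ZEB2-AS1 (0.137 TPM). ZEB1-AS1 thus stood above ZEB1 itself, which averaged 3.23 TPM in the libraries labelled siSTRN3 and 3.86 TPM in siNC. Without a known strand setting reads from these shared bases cannot be told apart, and their part in the ZEB1 values was not tested. The authors' deposited table gives adjusted p-values of 0.00721 for ZEB1 and 0.324 for ZEB2.

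VIM (chromosome 10, 17228259 to 17237593) encodes vimentin, the intermediate filament of mesenchymal cells, and was among the most abundant messages. It had 1753.25, 1717.54 and 1741.01 TPM in the libraries labelled siSTRN3, against 2983.63, 2992.49 and 3058.14 TPM in siNC. Among 19382 protein-coding rows it ranked 53 to 54 in the libraries labelled siSTRN3 and 41 to 45 in siNC. After rescaling the libraries labelled siSTRN3 held 2191.4, 2181.66 and 2158.03, against 2386.22, 2361.09 and 2462.62 in siNC, still without overlap. On this scale VIM fell 1.1-fold (log2 -0.14 ± 0.024 SE, adjusted p = 0.00882), a small change, with 27.3% of all tested rows lower. Its exons share 641 bases with VIM-AS1 on the opposite strand, which had 2.38, 2.23 and 0.52 TPM in the libraries labelled siSTRN3 and 4.83, 4.19 and 6.47 TPM in siNC, far under VIM itself.

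**Figure D4:**
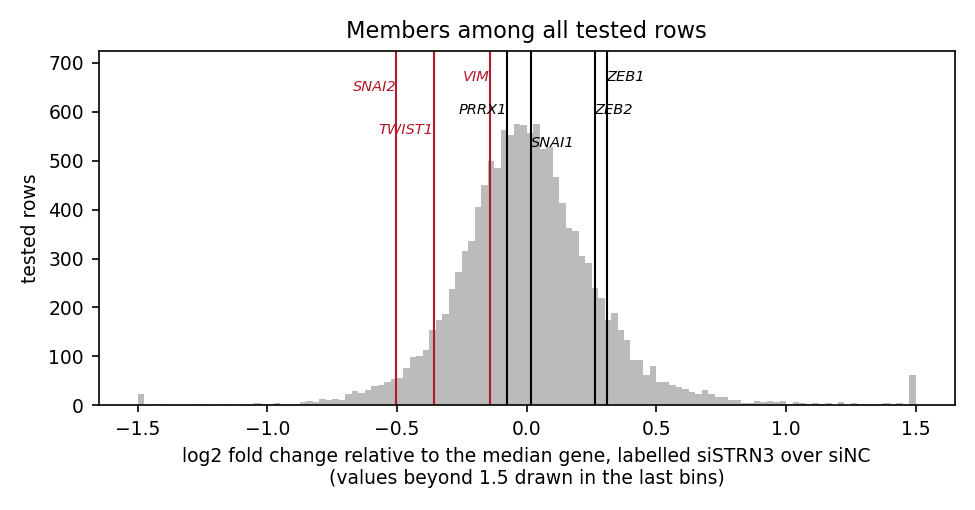
Histogram of log2 fold changes relative to the median gene, labelled siSTRN3 over siNC, for all 13004 tested rows, with lines at the 7 tested members, red for those that fell; rows beyond 1.5 in either direction are drawn in the last bins. SNAI2 at -0.50 and TWIST1 at -0.36 lie in the lower tail, VIM at -0.14 nearer the centre, and ZEB2 and ZEB1 at 0.26 and 0.31 above it.

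The cadherins that define the textbook switch were almost undetected in both groups. CDH1 (chromosome 16, 68737225 to 68835548) had 0.19, 0.18 and 0.10 TPM in the libraries labelled siSTRN3, against 0.15, 0.08 and 0.21 TPM in siNC. CDH2 (chromosome 18, 27950966 to 28177446) was listed at 0.11, 0.00 and 0.00 TPM in the libraries labelled siSTRN3, against 0.00, 0.00 and 0.03 TPM in siNC. High vimentin stood beside low E-cadherin and N-cadherin messages alike, and no change of either was detectable at these levels. In the authors' deposited table the adjusted p of both is 1.

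Another cadherin was expressed. Among 20 other cadherin genes 4 were tested, 1 fell and none rose, where 10.4% of all tested rows fell and 11% rose. CDH6, which encodes K-cadherin, had 16.20, 16.40 and 18.49 TPM in the libraries labelled siSTRN3, against 44.00, 50.40 and 42.70 TPM in siNC, and fell 1.68-fold after rescaling (log2 -0.74 ± 0.072 SE, adjusted p = 0.00154). It was the highest of the cadherins examined, in both groups. CDH24, CDH10 and CDH8 averaged 7.59, 4.52 and 1.29 TPM in the libraries labelled siSTRN3, against 11.2, 6.83 and 2.83 TPM in siNC, and were not called. The other 16 did not pass the filter, and 7 of them, CDH5, CDH9, CDH11, CDH12, CDH16, CDH17 and CDH19, were listed at 0 in all libraries.

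Most genes listed as catenins and cadherin adaptors were expressed. Of these 16 genes 12 were tested, 3 fell and none rose, where 21.3% of all tested rows were called, 10.4% lower and 11% higher. NECTIN2, a nectin adhesion receptor gene, fell (-0.41 ± 0.085 SE, adjusted p = 0.018), as did ADAM10, a protease that sheds cadherins (-0.22, adjusted p = 0.0279), and VCL, the vinculin gene (-0.18, adjusted p = 0.0133). With any 1 library left out the call of ADAM10 was lost (adjusted p = 0.0513 to 0.081), that of VCL without siNC replicate 1 (0.0562), and that of NECTIN2 without siSTRN3 replicate 1, siNC replicate 1 or siNC replicate 3 (up to 0.0648). Alpha-catenin, CTNNA1, averaged 56.6 ± 1.76 TPM in the libraries labelled siSTRN3 and 86.4 ± 1.1 TPM in siNC (SD, n = 3 each) and was not called (0.04, adjusted p = 0.414). JUP, the gene of plakoglobin, a catenin of epithelial junctions, was under 1 TPM in all 6 libraries.

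The label of an undifferentiated gastric cancer line was compared with marker genes. Of 16 epithelial markers 13 were under 1 TPM in every library, and their summed level was 3.82 to 9.58 TPM in the libraries labelled siSTRN3 and 5.76 to 7.02 TPM in siNC. GRHL2 and OVOL2, transcription factors that maintain epithelia, were listed at 0 in all libraries, and KRT7 stood at 5.65 TPM in siSTRN3 replicate 1 and at 0.87 and 0.79 TPM in the other two, against 1.29, 0.28 and 0.17 TPM in siNC. The 1 epithelial marker that passed the filter was CLDN7, a claudin gene, with 1.78, 0.88 and 1.14 TPM in the libraries labelled siSTRN3 and 2.24, 2.28 and 2.23 TPM in siNC (-0.14, adjusted p = 0.588). EPCAM, an epithelial adhesion gene, had 0.00, 0.21 and 0.11 TPM in the libraries labelled siSTRN3 and 0.52, 0.41 and 0.47 TPM in siNC. Of 11 gastric lineage markers 9 were under 1 TPM throughout, with GATA4 (5.15 ± 0.696 TPM in the libraries labelled siSTRN3 and 7.81 ± 0.317 TPM in siNC, SD, n = 3 each) and GATA6 above it. Neither GATA4 nor GATA6 was called. The 10 genes listed as fibroblast markers summed to 442 to 455 TPM in the libraries labelled siSTRN3 and 776 to 781 TPM in siNC, with COL3A1, DCN and COL1A1 the highest. Of these 10, 9 were tested, 4 fell and 2 rose, with a median of -0.16, where 10.4% of all tested rows fell and 11% rose. Beside SNAI2, TWIST1 and VIM, the markers DCN (-0.45, adjusted p = 0.0019), COL3A1 (-0.35, 4.20e-04), COL1A2 (-0.31, 0.0271) and LUM (-0.25, 0.0211) fell, while COL1A1 (0.44, 0.0019) and THY1 (0.35, 0.016) rose, although both lay below 0 on the deposited scale. Calls were lost for COL1A2 without any 1 library (adjusted p = 0.0515 to 0.0667), for LUM without siSTRN3 replicate 1, siNC replicate 1 or siNC replicate 3 (up to 0.0729), and for THY1 without siNC replicate 1 or 2 (up to 0.0585). Endothelial and leukocyte markers summed to at most 0.12 and 2.44 TPM in any library. The part of these markers in the members' values was not tested.

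**Figure D5:**
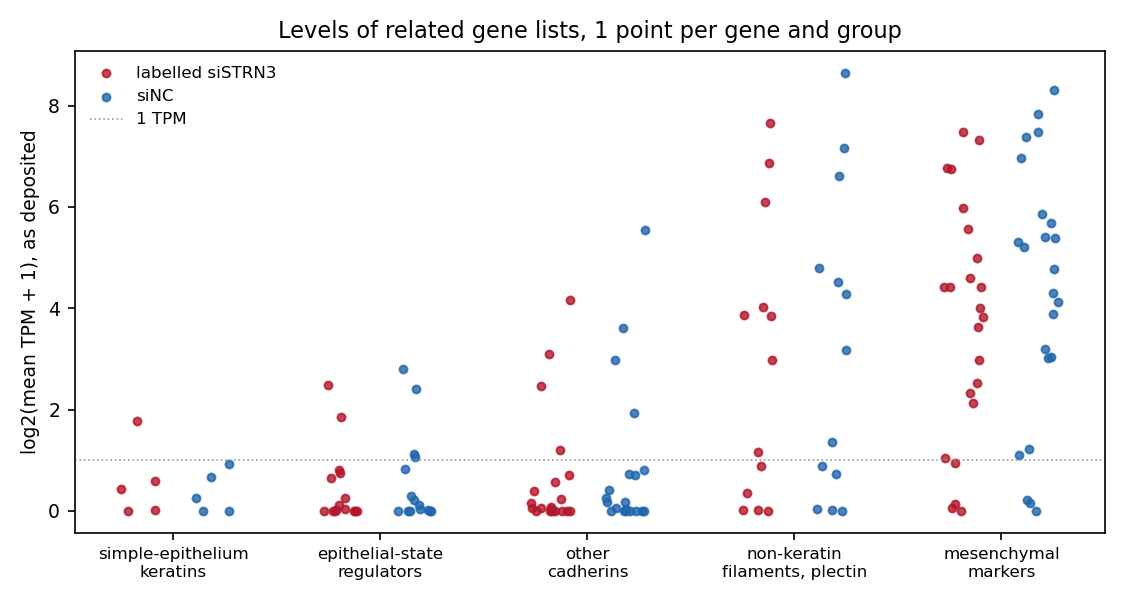
Mean level per gene as log2(mean TPM + 1), as deposited, for 5 gene lists, with 1 point per gene in the libraries labelled siSTRN3 in red and siNC in blue, and a dotted line at 1 TPM. Keratins and epithelial-state regulators lie mostly under the line, with KRT7, KLF4 and KLF5 among the exceptions, whereas the highest points are non-keratin filaments and mesenchymal markers, such as LMNA at 201 TPM in the libraries labelled siSTRN3 and 401 TPM in siNC.

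Other genes of the program were followed by list, each count to be read against the 11% up and 10.4% down of all rows. Of 16 other transcription factors linked to the transition 9 were tested, 3 fell and none rose, with a median of -0.045. TCF3, which encodes the E-box factor E2A, averaged 93 ± 4.1 TPM in the libraries labelled siSTRN3 and 174 ± 1.84 TPM in siNC (SD, n = 3 each) and fell (-0.25 ± 0.033 SE, adjusted p = 0.00384). TCF12, the gene of another E protein, fell as well (-0.27, adjusted p = 0.00359), as did SOX4 (-0.33, adjusted p = 0.0119). E proteins are the usual partners of TWIST1. The third E protein gene, TCF4, was not called.

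Regulators of the epithelial state were mostly low. Of 15 listed, 11 were under 1 TPM in all libraries, among them ESRP1 and ESRP2, which encode splicing factors of epithelial isoforms, and 5 were listed at 0 throughout. The 3 that were tested did not pass. KLF5 stood at 4.58 ± 0.663 TPM in the libraries labelled siSTRN3 and 5.95 ± 0.473 TPM in siNC (SD, n = 3 each), and KLF4 at 2.62 ± 0.513 TPM in the libraries labelled siSTRN3 and 4.3 ± 0.544 TPM in siNC.

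The genes listed as corepressors and partners of SNAIL and ZEB proteins were all expressed, 17 of 17 tested, and 2 rose and 3 fell. KDM1A, the histone demethylase LSD1 that SNAIL recruits, rose (0.36 ± 0.04 SE, adjusted p = 0.00234), and CTBP2, a corepressor of ZEB proteins, rose (0.46 ± 0.079 SE, adjusted p = 0.01), although on the deposited scale both lay below 0, at -0.28 and -0.15. SMARCA4, the BRG1 ATPase gene, fell (-0.15, adjusted p = 0.0123), as did EHMT2, the gene of the methyltransferase G9a (-0.25, adjusted p = 0.0243). The call of EHMT2 was lost in 4 of the 6 leave-outs (adjusted p up to 0.068), all but those of siSTRN3 replicate 1 and siNC replicate 2.

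Of 12 genes for the turnover of these factors 11 were tested, 2 rose and none fell, against 21.3% of all rows called. SIAH1, a ubiquitin ligase gene, rose (0.34 ± 0.054 SE, adjusted p = 0.00795), and CTDSP1, a phosphatase that stabilises SNAIL, rose (0.21, adjusted p = 0.0235), against -0.26 and -0.42 on the deposited scale. Leaving out any library other than siSTRN3 replicate 3 ended the call of CTDSP1 (adjusted p up to 0.082). GSK3B and BTRC, whose products mark SNAIL for degradation, were not called. Among 10 genes of signals that induce the transition 9 were tested, 1 rose and 1 fell. HIF1A rose (0.40 ± 0.081 SE, adjusted p = 0.0163; -0.22 on the deposited scale), SMAD2 fell (-0.22, adjusted p = 0.0101), and TGFBR2, the type II receptor of TGF-beta, was under 1 TPM in all 6 libraries.

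Vimentin was set beside other intermediate filaments. Of 13 non-keratin filament and plectin genes 8 were tested, 3 rose and 2 fell. LMNA, the gene of lamins A and C, averaged 201 ± 1.97 TPM in the libraries labelled siSTRN3 and 401 ± 4.42 TPM in siNC (SD, n = 3 each) and fell (-0.35 ± 0.026 SE, adjusted p = 5.53e-04). PLEC, the gene of the linker plectin, fell (-0.30, adjusted p = 0.00804), whereas SYNM, whose product synemin copolymerises with vimentin, rose (0.38, adjusted p = 0.00755) and LMNB2, a B-type lamin gene, rose (0.34, adjusted p = 0.00855), this pair at -0.19 and -0.31 on the deposited scale. The third to rise was LMNB1 (0.13, adjusted p = 0.021; -0.51 as deposited), named after its value was seen, and its call was lost without any 1 library other than siSTRN3 replicate 1 (adjusted p up to 0.0703). None of 5 keratins of simple epithelia passed the filter. KRT8 and KRT18, the usual keratin pair of such epithelia, stayed between 0.16 and 1.08 TPM in all 6 libraries.

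Most of the mesenchymal matrix and surface genes tested were not called. Of 23 listed, 20 were tested, 3 rose, 5 fell and 12 were not called, with a median of -0.11. ACTA2, the smooth muscle actin gene, had 62.30, 64.21 and 60.61 TPM in the libraries labelled siSTRN3, against 169.50, 175.70 and 184.35 TPM in siNC, and fell by a factor of 1.79 (-0.84 ± 0.047 SE, adjusted p = 1.89e-04). COL3A1 and POSTN, encoding a fibrillar collagen and periostin, fell by 0.35 each on the log2 scale (adjusted p = 4.20e-04 and 0.0024). COL1A1, another fibrillar collagen gene, rose (0.44 ± 0.046 SE, adjusted p = 0.0019; -0.21 on the deposited scale). AXL, a receptor tyrosine kinase often high in mesenchymal cancer cells and named after its value was seen, fell (-0.36, adjusted p = 0.0114). THY1, also on this list, rose (0.35, adjusted p = 0.016), and COL1A2 fell, both with calls lost in leave-outs as given above. Not all genes of the list that rose are named.

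Genes whose 6 values followed a called member most closely were found among 8360 tested rows with a mean of at least 5 TPM, as a description over libraries that share the 2 groups. For SNAI2 they were CSNK2A1 and EIF3B (Pearson r = 0.998 each), for TWIST1 TMEM230 and HSF1 (0.998 each), and for VIM PRKAB2 (0.998) and GATA2 (0.997). With 6 libraries in 2 groups such values are common: 528, 496 and 385 rows passed 0.95 for SNAI2, TWIST1 and VIM. In the authors' deposited table the adjusted p was 6.22e-08 for SNAI2, 2.23e-07 for TWIST1, 1.59e-10 for VIM and 0.943 for SNAI1, and its yes or no call was no for all 10 members. That call was no at low adjusted p-values too, so it cannot be read as no difference.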

How the data were processed

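The authors deposited a table of 58233 gene rows, plus 2 rows without a gene that were left out, with TPM values per library and group means, per the file headers (the file name says FPKM). Its p-values and adjusted p-values are the authors' own, for which the file name gives DESeq2; any that is printed is credited to that source. A length per row, also deposited by the authors, entered no test. HISAT2, Cufflinks, RSEM and the build GRCh38.p10 are listed in the submitters' processing notes without roles or versions. How strand and multiply matching reads were handled, and with which annotation, is not given in the sources here. Samples were grouped and numbered by their titles. The TPM columns sum to 966433 to 968756 in the libraries labelled siSTRN3 and 985805 to 987429 in siNC.

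Each library was multiplied by 1 factor so that its median over tested rows equalled the geometric mean of the 6 medians. limma-trend (limma 3.58.1, R 4.3.3, data.table version 1.17.8) was fitted to log2(TPM + 1) of all 13004 rows that reached 1 TPM in 3 or more libraries, without a block, with Benjamini-Hochberg adjustment over all of them. Alternatives were the deposited scale, TPM recomputed over protein-coding rows, a pseudocount of 0.1, no filter, a minimum of 5 TPM, a replicate block and each library left out. Members and lists were chosen with earlier results of these data known. Named genes are the 10 members, STRN3, from each of 11 lists up to 4 called genes with the smallest adjusted p, or the 2 highest where none passed, and the 2 rows most like each called member; others are given for comparison within their list, chosen after their values were seen.

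Coordinates and gene types were matched by unique symbol to GENCODE release 29 (GRCh38), and sequences from RefSeq (GRCh38.p14) and GENCODE. Exon overlaps were taken on either strand. Near-identical copies of the members were searched with blastn (BLAST+ 2.17.0) at 95% identity or more. By share of the member the largest match was AL133415.1, which covered 13.4% of VIM. AL133415.1 lies at the VIM locus, where it shares 619 exonic bases with VIM on the opposite strand (mean 0.413 TPM). The longest match in bases was ZEB2-AS1, with 424 bases of ZEB2, which it also overlaps. Copies of list genes were not searched. Tables and plots used Python 3.11.15, pandas 2.3.3, numpy 2.4.6, scipy 1.17.1 and matplotlib 3.10.9.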

Additional observations from a re-analysis of the deposited data

How the results depend on the processing

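The calls of SNAI2, TWIST1 and VIM held under every alternative run. Their log2 fold changes were -0.52 to -0.49, -0.37 to -0.34 and -0.16 to -0.12 when 1 library was left out (limma adjusted p at most 0.0344). For VIM the adjusted p was 0.0365 without the filter and 0.0375 with the replicate block. Members called stayed at 3 in every leave-out and numbered 5 on the deposited scale, where SNAI1 was at -0.54, PRRX1 at -0.72 and STRN3 at 0.24. Leaving out 1 library gave 0.68 to 0.89 for STRN3, -0.051 to 0.068 for SNAI1, 0.23 to 0.41 for ZEB1, 0.11 to 0.43 for ZEB2, -0.12 to -0.03 for PRRX1, -0.16 to 0.37 for the log2 ratio of ZEB1 to ZEB2 and -0.62 to -0.49 for that of SNAI2 to SNAI1. Of all rows, 10643 passed on the deposited scale, 131 higher and 10512 lower, and 1485 to 2128 with 1 library left out (786 to 1103 higher, 699 to 1077 lower), the lowest being 1485, 1529 and 1577 without siNC replicates 1, 2 and 3. With the replicate number as a block 1745 passed, 910 higher and 835 lower. Same-numbered libraries did not deviate together (r = 0.057, -0.0213 and -0.0804 across genes). This check cannot tell if they were prepared together. The block changed no call of a member. The same alternatives were run, chosen after seeing the data, for the list and marker genes named. The block ended the calls of SMARCA4, EHMT2, CTDSP1, NECTIN2, ADAM10, LMNB1 and COL1A2 (adjusted p = 0.0513, 0.0721, 0.066, 0.0546, 0.0587, 0.0668 and 0.0664), the lack of a filter those of EHMT2, LUM and COL1A2 (0.0574, 0.0517 and 0.0581), and TPM over protein-coding rows that of LMNB1 (0.0796). On the deposited scale the direction turned for KLF5 (-0.32), KDM1A (-0.28), CTBP2 (-0.15), CTDSP1 (-0.42), SIAH1 (-0.26), SYNM (-0.19), LMNB2 (-0.31), COL1A1 (-0.21), HIF1A (-0.22), LMNB1 (-0.51), THY1 (-0.29), PRRX2 (-0.63), TCF4 (-0.46), CTNNA1 (-0.60), CDH24 (-0.51), CDH10 (-0.51) and GATA4 (-0.52). GATA6 gained a call with TPM over protein-coding rows (-0.34, limma adjusted p = 0.0391, against -0.26 and 0.0757 in the main fit). On the deposited scale GATA6, KLF4, CDH8, GSK3B, BTRC, CLDN7, ZEB1-AS1 and VIM-AS1 gained calls without a turn of direction, all lower. A minimum of 5 TPM gives no value for ZEB1 or ZEB2. Depth is unknown, so the limit of detection of CDH1, CDH2 and TWIST2 cannot be given.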
